A study of Mus musculus with 12 samples.

Results

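The genes described here encode mitochondrial ribosomal proteins. They are the 76 of 11298 genes in the deposited expression table whose symbol begins with Mrpl or Mrps followed by a digit, 47 Mrpl and 29 Mrps genes. The symbols do not follow the ribosome's structure exactly: the Mrps18a and Mrps30 proteins sit in the large subunit, and Mrps36 is now known as a component of the 2-oxoglutarate dehydrogenase complex. By structure, 49 members belong to the large subunit, 26 to the small subunit and 1, Mrps36, to neither. Of the others, 46 have a counterpart in the bacterial ribosome and 29 are specific to mitochondria.

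The mitochondrial ribosome translates the few messenger RNAs of the mitochondrial genome, all of which encode subunits of the oxidative phosphorylation complexes. Its RNAs come from the mitochondrial genome, but all of its proteins are encoded in the nucleus, made in the cytosol and imported. The oocyte is rich in mitochondria and supplies them, with a stock of messenger RNA, to the embryo; much of that maternal stock is removed as the embryo begins to transcribe its own genome, which in the mouse takes place mainly at the 2-cell stage.

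The study measured messenger RNA by Smart-seq2, a full-length cDNA method primed with oligo-dT, in libraries of 10 C57BL/6 mouse oocytes or embryos each. Wild-type (Pabpn1l-WT) and knockout (Pabpn1l-KO) samples were taken at 3 stages, with 2 libraries in each of the 6 groups: fully grown oocytes with an intact nucleus, the germinal vesicle (GV) stage, collected from the animals, and 1-cell and 2-cell embryos cultured in KSOM medium. The protein encoded by Pabpn1l binds poly(A) tails and is made in oocytes, and the comparison asks which transcripts differ without it before and after fertilization. The labels do not give the genotypes of the embryos' parents or say whether replicate libraries came from different animals, so the tests measure the spread between libraries, which may be technical.

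Values are FPKM (fragments mapped to a gene, scaled by its length and by the library's total), with a lowest value of 1 in every library; read depth is unknown. In the 8 embryo libraries, but not in the oocytes, every value above that floor is an FPKM multiplied by 1 number per library: 0.269 and 0.212 for the WT and 0.432 and 0.552 for the KO libraries of 1-cell embryos, and 0.116 and 0.123 (WT) and 0.130 and 0.121 (KO) for those of 2-cell embryos. What this library factor was based on is not given in the sources used here. At the 1-cell stage it differs between genotypes, so each comparison is given on the deposited scale and again with the factor divided out. A difference is in log2(FPKM + 1) with its standard error (SE), and a gene was called when limma's p, adjusted by Benjamini-Hochberg over all 11298 genes, was under 0.05. Pabpn1l itself was at 220 and 204 FPKM in WT, against 7.23 and 4.98 in KO oocytes, and at 16.4 and 12.2 in WT, against 2.57 and 4.55 in KO 1-cell embryos; at the 2-cell stage it was at most 1.90 in any library and cannot check the labels. All 10 oocyte markers examined were in the table, with sums of 15531 to 17076 FPKM in the oocyte libraries, whereas the 4 cumulus or granulosa cell markers present (of 11 listed) summed to 29.6 to 35.9, the 3 sperm markers (of 6) to 59.1 to 73.1 and the 4 blood markers (of 8) to 5.67 to 6.98. In the 1-cell libraries the cumulus list summed to 8.09 to 9.48 in WT, against 12.2 to 14.8 in KO; in every 2-cell library it was at the floor. The part of other cells in the results was not tested.

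In oocytes all 76 members were above the floor in all 4 libraries. Their median was 66.7 and 69.4 FPKM in the WT and 69.4 and 75.4 in the KO libraries. The highest in WT oocytes were Mrps36 (493 ± 48 FPKM, SD, n = 2), Mrpl48 (491 ± 27), Mrps33 (456 ± 52) and Mrpl32 (359 ± 33), the last a large-subunit protein whose maturation by the mitochondrial m-AAA protease is a step in ribosome assembly. The first 3 did not differ beyond their spread. The lowest were Mrps34 (2.37 ± 0.29), Mrpl19 (3.17 ± 0.34), Mrpl49 (8.31 ± 0.20) and Mrpl17 (9.44 ± 0.43), so genes for proteins of 1 particle differed widely in level on this length-corrected scale.

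No member was called between KO and WT oocytes, against 0.584% of all genes called higher and 1.04% called lower; on the scale of the comparisons without the factor the members' count was also 0, against 0.0177% in each direction. Only limma was run. Before adjustment, 1 member had a p under 0.05: Mrps10, a small-subunit protein, was at 18.5 and 18.6 FPKM in WT, against 12.8 and 12.6 in KO oocytes, a difference of -0.51 ± 0.14 (adjusted p = 0.163, limma). The members' median difference was 0.07, and their range was -0.51 to 0.33.

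**Figure D1:**
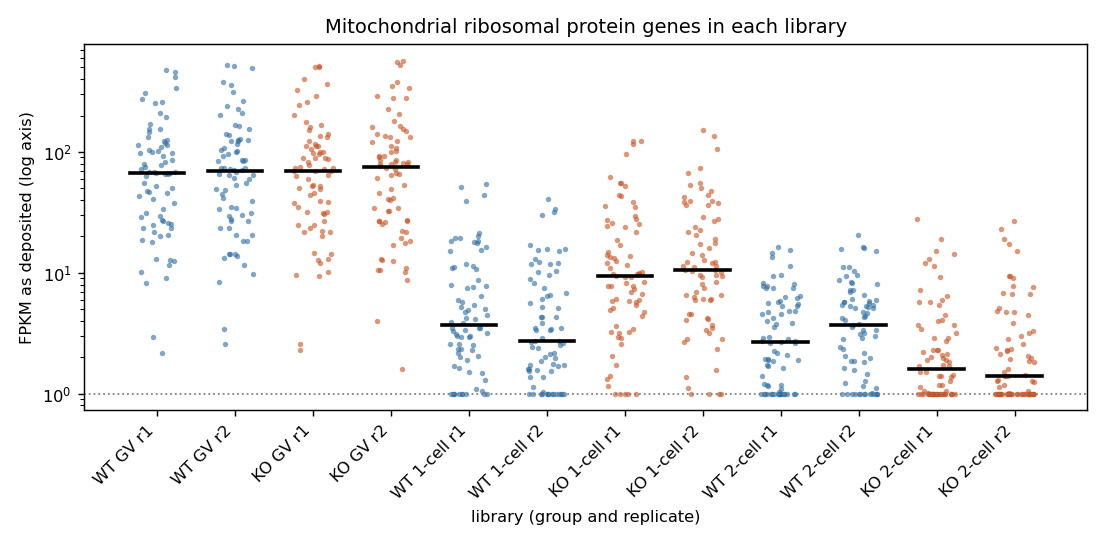
FPKM of the 76 members as deposited (log axis) in each of the 12 libraries, blue for WT and orange for KO; each point is 1 gene, the bar is the median and the dotted line the lowest value of 1. The oocyte medians lie between 66.7 and 75.4 FPKM, and the 1-cell medians are at 3.69 and 2.74 in WT and at 9.32 and 10.5 in KO.

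From oocyte to WT 1-cell embryo the members' transcripts fell, on the deposited scale, in 76 of 76 cases. On this scale 85.8% of all genes were called lower and 0.0354% higher. The members' median change was -3.57 and that of all genes -1.49. With values divided by the factor, 62 members were called lower and none higher, against 27.9% and 12.3% of all genes, and the medians were -1.74 and 0.00. The stages also differ in that the embryos were cultured and the oocytes were not, which cannot be told apart from the stage. Each library holds 10 whole oocytes or embryos, so fewer contributing cells and less RNA per cell cannot be told apart, nor can fewer transcripts and shorter poly(A) tails, since priming was with oligo-dT.

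On the log2(FPKM + 1) scale the largest fall was that of Mrps22, a mitochondria-specific small-subunit protein. It went from 308 and 359 FPKM in WT oocytes to 4.93 and 3.85 in WT 1-cell embryos, leaving 1.32% of its mean, a change of -5.96 ± 0.20 (adjusted p = 6.2e-08, limma). Mrpl14 (-5.94), Mrps18c (-5.85), Mrpl12 (-5.69), Mrpl28 (-5.39), Mrpl52 (-5.33), Mrpl33 (-5.06) and Mrpl46 (-4.98) came next, and all 8 were also called lower with the factor divided out. By the share of the oocyte mean that was left, Mrpl28 was lower still (1.23%), with WT 1-cell values of 1.08 and 1 FPKM, at or near the floor. Mrpl12 is the protein of the flexible stalk that contacts translation factors, and is also known to bind the mitochondrial RNA polymerase. At the other end, Mrpl3, Mrpl44, Mrpl45, Mrpl53 and Mrps14 differed from oocytes by 0.31, 0.02, 0.10, 0.14 and 0.01 once the factor was divided out, none of them called. At WT 1-cell stage 10 members were at the floor in both libraries.

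The factor cancels in the members' summed share of the FPKM above the floor in their own library, except that it sets which values lie at the floor. It was 1.25% and 1.31% in WT, against 1.30% and 1.36% in KO oocytes. In 1-cell embryos it was 0.503% and 0.487% in WT, against 0.628% and 0.570% in KO, and in 2-cell embryos 0.605% and 0.655% in WT, against 0.414% and 0.431% in KO. The libraries of the 2 genotypes do not overlap at either embryonic stage, and the genotype with the larger share is KO at the 1-cell and WT at the 2-cell stage. In oocytes they overlap. At the 1-cell stage the floor, with the factor divided out, lay at 3.71 and 4.71 in WT, against 2.31 and 1.81 in KO, and 10 and 14 members, against 5 and 4, were at it. With the highest floor of any library, 8.61, applied to all, an alternative chosen after the data were seen, the shares were 0.498% and 0.475% in WT, against 0.630% and 0.569% in KO 1-cell embryos, and 0.605% and 0.655% against 0.411% and 0.428% in 2-cell embryos.

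**Figure D2:**
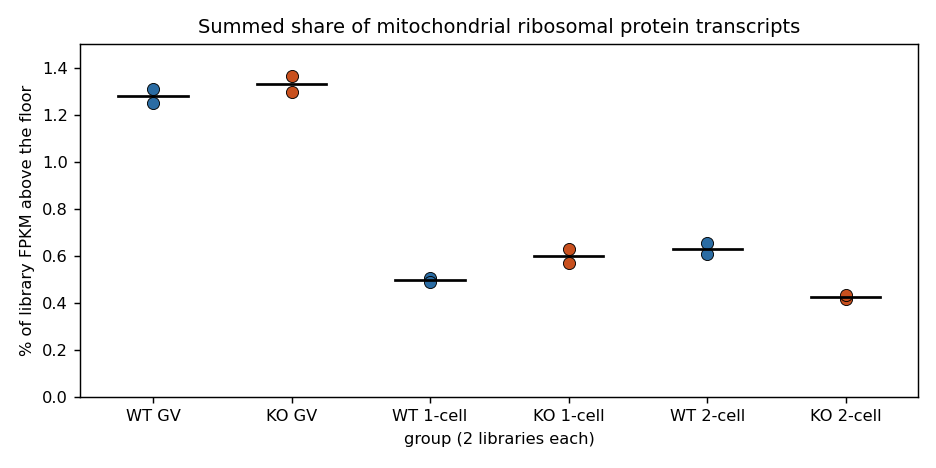
Summed share of the 76 members in the FPKM above the floor of each library, in percent, for 6 groups of 2 libraries; points are libraries (blue WT, orange KO) and bars group means. The share is between 1.25% and 1.36% in oocytes, higher in KO than in WT 1-cell embryos and lower in KO than in WT 2-cell embryos.

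In 1-cell embryos the knockout held more of most members' transcripts than wild type on the deposited scale: 59 of 76 were called higher and none lower, against 52.7% and 0.0974% of all genes. The median difference was 1.06 for the members and 0.57 for all genes. The share called depends on level, since genes at the floor in both genotypes cannot be called: where the mean over all libraries was 5 FPKM or more, 60 of 70 members and 86.1% of 5537 genes were called higher (0.199% of the genes lower), with medians of 1.09 and 0.96. The comparisons at other stages and the interactions are set against all genes only, so this limit applies to them too. On the scale without the factor, the median of all genes was 0.00 and that of the members 0.23, and 16 members were called higher and 2 lower, against 8.05% and 2.89% of all genes. On that scale genes at the common floor in all 4 libraries have a difference of 0. All 16 members were among the 59. They were Mrpl2, Mrpl9, Mrpl12, Mrpl14, Mrpl18, Mrpl22, Mrpl24, Mrpl27, Mrpl28, Mrpl32, Mrpl39, Mrpl42, Mrpl50, Mrps9, Mrps28 and Mrps31, that is 13 of 49 large-subunit and 3 of 26 small-subunit members. Beside this, the 10 oocyte markers summed to 2723 and 3605 FPKM in the WT and 7626 and 8482 in the KO 1-cell libraries as deposited; their part in the result was not tested.

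The largest difference was in Mrps28, a small-subunit protein. It was at 63.1 and 70.3 FPKM in WT, against 77.5 and 85.2 in KO oocytes, at 2.94 and 2.65 in WT, against 52.5 and 55.8 in KO 1-cell embryos, and at 1.92 and 2.82 in WT, against 2.87 and 2.84 in KO 2-cell embryos. On the deposited scale WT had 4.19% and KO 66.6% of the oocyte mean left at the 1-cell stage, and by the 2-cell stage both genotypes were low. The 1-cell difference was 3.86 ± 0.16 (adjusted p = 6.16e-06, limma), a ratio of means of 19.4, and 3.14 ± 0.18 (adjusted p = 3.59e-06) with the factor divided out.

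Mrpl39, a mitochondria-specific large-subunit protein, behaved likewise. It was at 2.18 and 1.03 FPKM in WT and at 25.4 and 28.9 in KO 1-cell embryos, and at the floor in all 4 libraries of 2-cell embryos. Its 1-cell difference was 3.47 ± 0.20 (adjusted p = 1.22e-05, limma), and 2.95 ± 0.21 with the factor divided out. Both genes were thus high in KO at the 1-cell stage, with no genotype difference called at the 2-cell stage.

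In Mrps31, Mrpl32 and Mrpl14 the knockout was higher at both embryonic stages. Mrps31, a mitochondria-specific small-subunit protein, was at 3.12 and 1.55 FPKM in WT, against 26.0 and 21.8 in KO 1-cell embryos, and at 1 and 1 in WT, against 5.43 and 4.48 in KO 2-cell embryos. Mrpl32 was at 19.4 and 15.3 in WT, against 124 and 135 in KO 1-cell embryos, and at 4.58 and 5.28 against 12 and 15.1 in 2-cell embryos. Mrpl14, which in the assembled ribosome lies at the interface between subunits, was at 3.37 and 2.74 against 21.6 and 26.8, and then at 1.16 and 1.02 against 3.69 and 6.78. No WT library reached a KO library of its stage in these 3 genes, which were named for their large called differences, so this adds no support. Their 1-cell differences were 2.94 ± 0.23, 2.83 ± 0.17 and 2.63 ± 0.23, and their 2-cell differences 1.57 ± 0.23, 1.29 ± 0.17 and 1.53 ± 0.23. All 6 were also called with the factor divided out; for Mrps31 the 2-cell values in WT are the floor itself, so its difference there is measured against the floor.

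Mrpl22, which lines the exit tunnel of the ribosome, was at 5.73 and 5.57 FPKM in WT, against 43.6 and 44.3 in KO 1-cell embryos (2.76 ± 0.24, and 1.89 ± 0.28 with the factor divided out). Mrpl42 differed by 2.33 ± 0.24 and Mrpl12 by 2.23 ± 0.18. On the deposited scale Mrps9 kept the largest share of its oocyte level in KO, 85.4%, against 16.2% in WT. Over all members, the median share of the oocyte mean left at the 1-cell stage was 6.84% in WT, against 16.4% in KO, also as deposited. These shares include the library factor, which was larger in KO at this stage. They were not computed with the factor divided out or over all genes, so they show no trait particular to the members.

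**Figure D3:**
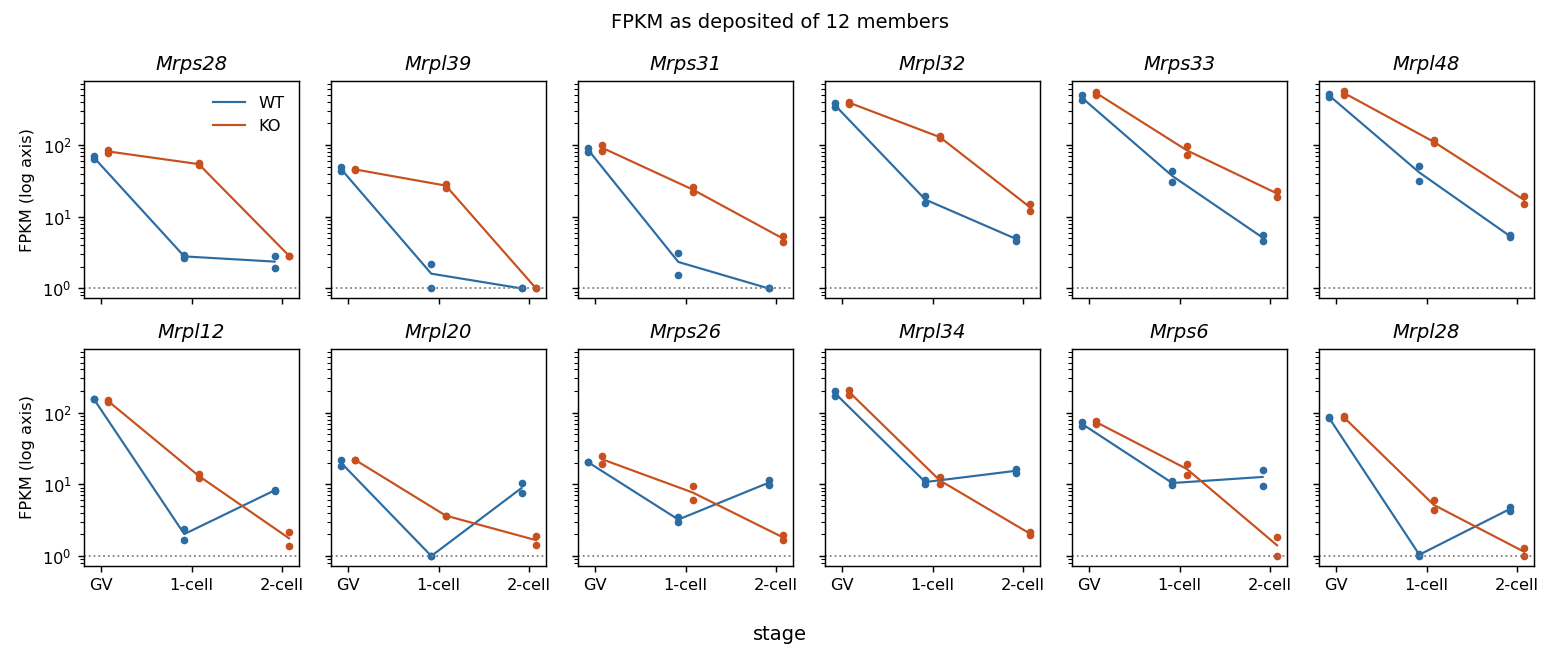
FPKM as deposited (log axis) of 12 members at GV, 1-cell and 2-cell stage; points are libraries, lines join group means, blue WT and orange KO, and the dotted line is the floor of 1. Top row, members whose KO values were above WT at the 1-cell stage (Mrps28, Mrpl39) or at both embryonic stages; bottom row, members whose KO values were below WT at the 2-cell stage, such as Mrpl12 at 8.17 and 8.28 in WT, against 1.38 and 2.15 in KO.

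Other members showed no such excess. Mrpl34 was at 11.3 and 10.2 FPKM in WT, against 12.5 and 10.2 in KO 1-cell embryos, and Mrpl47 at 17.6 and 11.9 in WT, against 13.6 and 12.3 in KO, so the genotypes overlapped in both genes. Their differences on the deposited scale were 0.07 ± 0.16 and -0.15 ± 0.20, neither called. Without the factor they were the 2 members called lower in KO, by -0.93 ± 0.20 (adjusted p = 0.0118, limma) and -1.16 ± 0.21 (adjusted p = 0.00505), so the call, and for Mrpl34 the sign, depends on the factor. Both lay below the members' median on either scale, which was 1.06 as deposited and 0.23 without the factor. Mrps18b (-0.71) and Mrpl45 (-0.62) were the next lowest on that scale and were not called. Mrpl19, Mrpl17, Mrpl41 and Mrps34 were at the floor in all 4 libraries of 1-cell embryos and carry no information there.

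Whether the fall from oocyte to 1-cell embryo itself differed between genotypes was tested as an interaction. On the deposited scale it was smaller in KO for 45 members and larger for none, against 38.7% and 0.859% of all genes. With the factor divided out it was smaller for 9 and larger for none, against 4.04% and 0.823%: Mrpl12, Mrpl14, Mrpl22, Mrpl28, Mrpl32, Mrpl39, Mrps10, Mrps28 and Mrps31. Of these, Mrps10 was not among the 16 members called higher in KO 1-cell embryos on that scale. Its interaction also includes its lower level in KO oocytes (-0.51, not called). Without the second WT 1-cell library the deposited-scale count was 29. In KO alone, 72 members were called lower in 1-cell embryos than in oocytes and none higher, against 66.9% and 0.23% of all genes. With the factor divided out, 58 were lower in KO 1-cell embryos and 1, Mrps9, higher, against 26.4% and 13.2%. The floor applied in this comparison was 2.31, against 4.71 in that of WT 1-cell embryos with WT oocytes, so the 2 sets of counts are not directly comparable.

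At the next step, wild-type embryos raised some members and went on losing others. From the 1-cell to the 2-cell stage 16 members rose and 28 fell on the deposited scale, against 9.45% and 29.0% of all genes. On the other scale 29 rose and 12 fell, against 21.0% and 14.9%, and these included all of the 16 that rose on the deposited scale. The members that rose include proteins of both subunits and of both evolutionary origins.

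Mrpl20, a large-subunit protein with a bacterial counterpart, rose the most. It was at the floor in both WT 1-cell libraries and at 7.47 and 10.3 FPKM in the WT 2-cell libraries (2.29 ± 0.18 against the floor, adjusted p = 1.52e-05, limma; 2.95 with the factor divided out). Mrpl12 went from 2.35 and 1.69 to 8.17 and 8.28 (1.62 ± 0.18), and Mrps26 from 3.0 and 3.45 to 11.4 and 9.64 (1.45 ± 0.21). In these 3 genes every WT 2-cell library was above every WT 1-cell library, which adds no support, since they were named for their large rises. Mrps11 (1.48), Mrpl28 (1.43), Mrpl43 (1.42), Mrpl51 (1.40), Mrps30 (1.30), Mrps7 (1.29), Mrpl46 (1.28) and Mrps24 (1.23) also rose.

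The members that fell furthest in WT were Mrpl47 (-2.75 ± 0.20), Mrpl48 (-2.69 ± 0.22), Mrps33 (-2.62 ± 0.22), Mrps36 (-2.60 ± 0.23), Mrpl21 (-2.34 ± 0.29), Mrpl24 (-2.04), Mrps35 (-1.72) and Mrpl3 (-1.70). Mrpl3 was not called with the factor divided out (-0.92 ± 0.34, adjusted p = 0.0827, limma). Mrps36, the member with the highest level in WT oocytes, had 0.389% of that level left at the WT 2-cell stage.

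In KO embryos no member rose on the deposited scale. From the 1-cell to the 2-cell stage 67 were called lower, against 60.7% and 0.646% of all genes. On the other scale 31 were lower and 5 higher, against 16.7% and 10.9%; the 5 were Mrpl13, Mrpl20, Mrpl42, Mrpl43 and Mrpl51. Mrpl20 rose by 0.59 ± 0.18 in KO on that scale and by 2.95 ± 0.16 in WT.

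The change from the 1-cell to the 2-cell stage was lower in KO than in WT for 59 members and higher for none when tested as an interaction, against 35.7% and 0.239% of all genes. Without the factor the counts were 28 and 2, against 15.8% and 5.91%. The 2 with a higher change in KO on that scale were Mrps33 (1.77 ± 0.36) and Mrpl48 (1.13 ± 0.30). The largest deposited-scale estimates were those of Mrpl12 (-3.98 ± 0.25), Mrps28 (-3.65 ± 0.22), Mrpl22 (-3.53 ± 0.35) and Mrpl39 (-3.47 ± 0.29). For Mrpl12 both a higher KO level at the 1-cell and a lower one at the 2-cell stage enter this value, whereas for Mrps28 and Mrpl39 a genotype difference was called at the 1-cell and not at the 2-cell stage. Mrpl39 was at the floor in all 4 libraries of 2-cell embryos, so its estimate is its 1-cell difference with the sign reversed. The same holds for any member at the floor in both genotypes at the 2-cell stage.

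**Figure D4:**
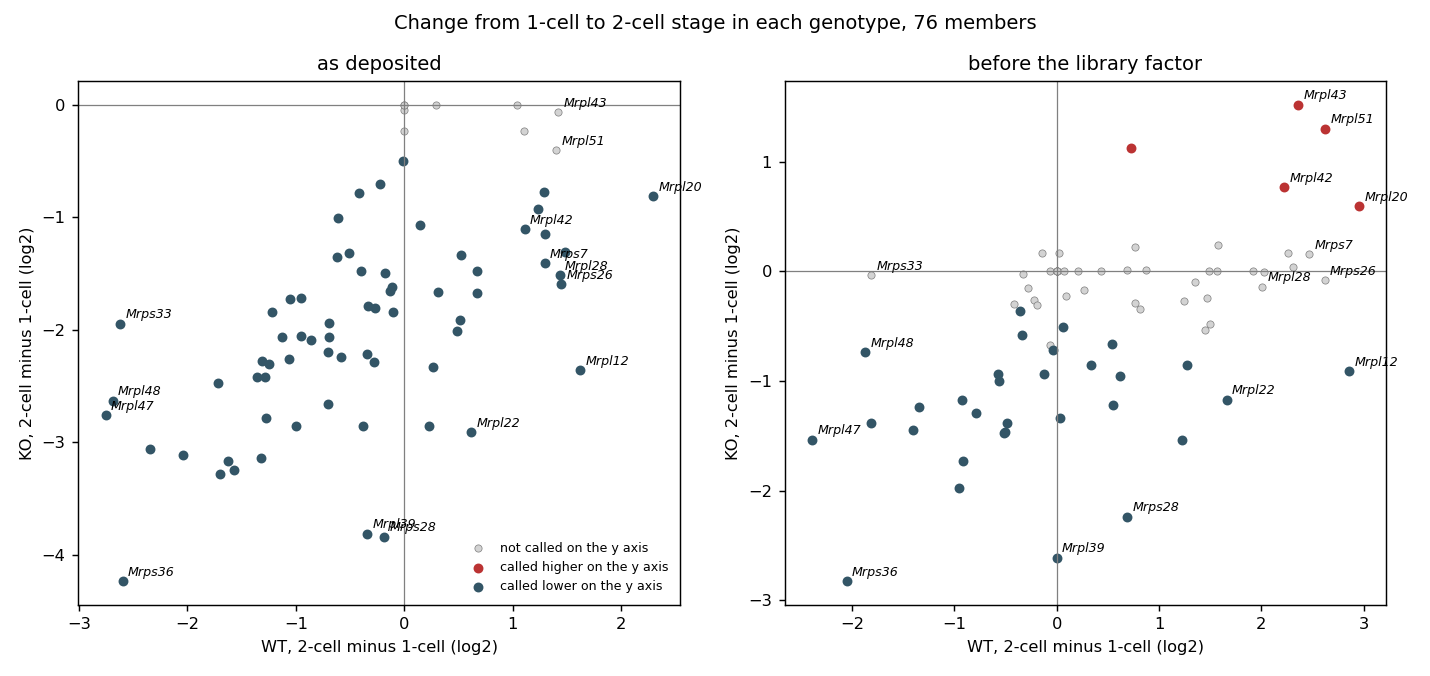
Change from the 1-cell to the 2-cell stage in WT (x axis) and in KO (y axis), in log2(FPKM + 1), for the 76 members on the deposited scale (left) and with the library factor divided out (right); dark points were called lower and red points higher in KO, grey points were not called. Mrpl20 and Mrpl12 rose in WT by 2.29 and 1.62 on the left and by 2.95 and 2.85 on the right, and lie under 0 in KO on the left.

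The direct comparison of 2-cell embryos uses the same WT libraries as the change within WT, so the values of each are given on their own. The library factors of the genotypes are close at this stage, and the comparison gave 6 members higher and 21 lower in KO, against 7.56% and 12% of all genes. The median difference was -0.24 for the members and 0.00 for all genes. With the factor divided out 8 were higher and 30 lower, against 11.1% and 18.7%, and these held all 6 and all 21. Of the large-subunit members 14 of 49 and of the small-subunit members 7 of 26 were lower on the deposited scale, and 3 of each were higher. Of the members with a bacterial counterpart 10 of 46 were lower, and of the mitochondria-specific ones 11 of 29.

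The lowest in KO was Mrps6, a small-subunit protein, at 9.57 and 15.8 FPKM in WT, against 1.81 and 1 in KO 2-cell embryos (-2.49 ± 0.26, adjusted p = 0.000206, limma). Its annotated exons share 36.1% of their length with Gm49711 and 18.8% with Slc5a3, both on the same strand, and reads from these genes cannot be told apart. Mrpl34, a short large-subunit protein with a bacterial counterpart, was at 14.5 and 16.4 in WT, against 2.13 and 1.96 in KO (-2.43 ± 0.16, adjusted p = 1.25e-05). Mrps26 was at 11.4 and 9.64 in WT, against 1.69 and 1.94 in KO (-2.03 ± 0.21). In each of the 3 genes both WT libraries lay above both KO libraries. That is no separate support, since they were named for their large called differences. Exons of 15 members overlap another gene, mostly on the opposite strand, by 58.2% of the transcript in Mrps25, 43.6% in Mrpl24, 39.2% in Mrpl19 (with Gcfc2), 27.5% in Mrpl43, 27.0% in Mrpl13, 18.1% in Mrps30, 13.4% in Mrpl47 and 10.3% or less in the others on the opposite strand; Smart-seq2 reads carry no strand, so such reads cannot be told apart.

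Mrpl20 (-1.88 ± 0.18), Mrpl12 (-1.75 ± 0.18), Mrps24 (-1.67 ± 0.18), Mrps7 (-1.66 ± 0.17) and Mrps30 (-1.54 ± 0.20) followed. Mrps7 organizes the head of the small subunit, and Mrps30 is a large-subunit protein despite its symbol. The remaining 13 lower members were Mrps11, Mrps18b, Mrpl46, Mrpl28, Mrpl4, Mrpl49, Mrpl41, Mrps22, Mrpl33, Mrpl51, Mrpl45, Mrpl54 and Mrpl40, with differences of -1.48 to -0.70. Calls of Mrpl4, Mrpl51 and Mrpl54 ended when 1 library was left out: without the first WT library Mrpl4 had an adjusted p of 0.0803 and Mrpl54 one of 0.239, and without the second WT library those of Mrpl4, Mrpl51 and Mrpl54 were 0.0658, 0.0984 and 0.178 (limma). Without the first KO library Mrpl4 was at 0.0859 and Mrpl54 at 0.21, and without the second KO library Mrpl51 was at 0.0887 and Mrpl54 at 0.158.

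The 6 higher members were Mrps33, Mrps31, Mrpl14, Mrpl48, Mrpl32 and Mrps14. Mrps33 was at 4.60 and 5.62 FPKM in WT, against 19.0 and 23.2 in KO 2-cell embryos (1.85 ± 0.22, adjusted p = 0.000459, limma). Mrpl48 was at 5.51 and 5.29 in WT, against 15.1 and 19.2 in KO (1.49 ± 0.22). Both were among the most abundant members in oocytes. Mrps14 differed by 0.98 ± 0.25 (adjusted p = 0.0221), and its call ended whichever of the 4 libraries was left out: adjusted p = 0.166 and 0.0538 without the first and second WT library, and 0.0581 and 0.143 without the first and second KO library (limma).

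**Figure D5:**
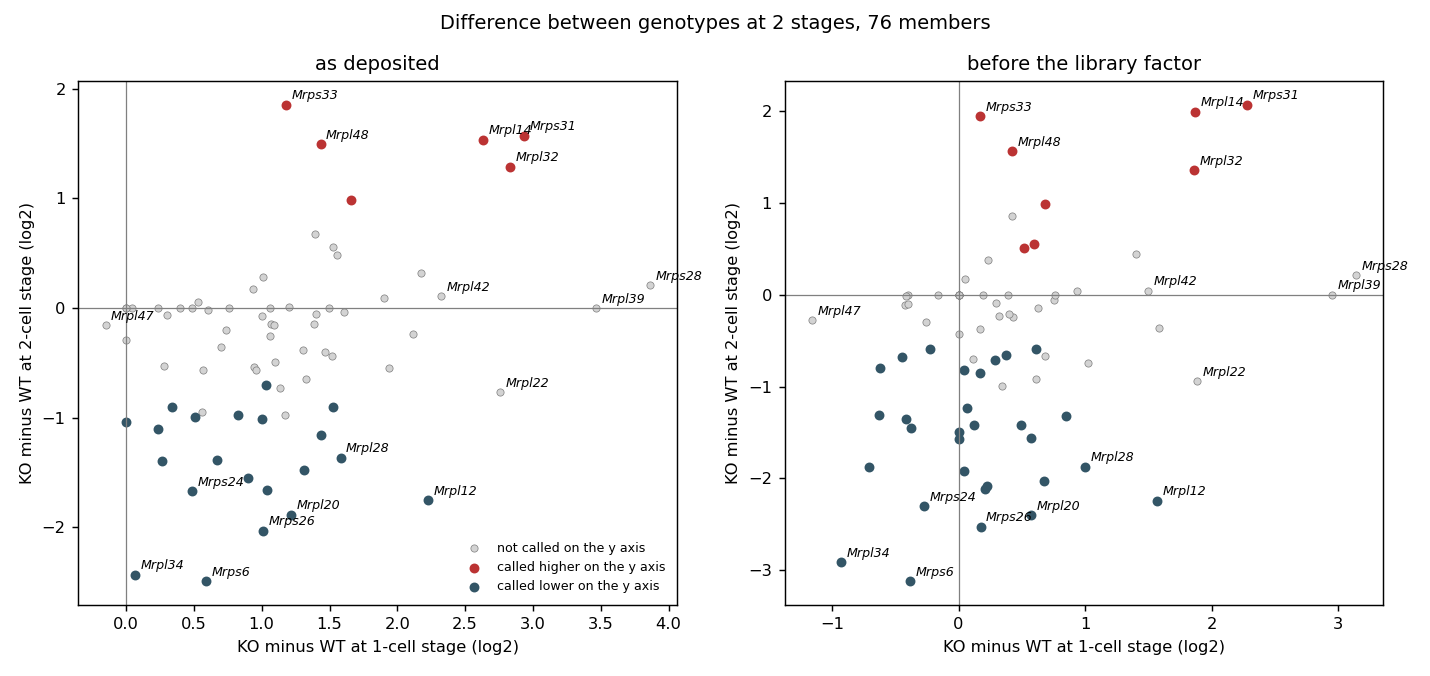
Difference between KO and WT at the 1-cell stage (x axis) and at the 2-cell stage (y axis), in log2(FPKM + 1), for the 76 members on the deposited scale (left) and with the library factor divided out (right); red points were called higher and dark points lower in KO at the 2-cell stage. Mrps31, Mrpl14 and Mrpl32 lie at upper right in both panels, and Mrpl12 at lower right with 2.23 and -1.75 on the left.

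On the deposited scale 14 members were called higher in KO at the 1-cell and lower in KO at the 2-cell stage: Mrpl4, Mrpl12, Mrpl20, Mrpl28, Mrpl40, Mrpl46, Mrpl51, Mrpl54, Mrps7, Mrps11, Mrps22, Mrps24, Mrps26 and Mrps30. The same pattern was found in 667 of the 11298 genes, 5.9%, against 18.4% of the members. The share of all genes includes those at the floor in both genotypes, which cannot be called. No share among genes of like level is given for this pattern, so its excess in members is not established. With the factor divided out it held for 2 members, Mrpl12 and Mrpl28, and for 164 genes, that is 2.63% against 1.45%. Mrpl28 was at 1.08 and 1 FPKM in WT, against 4.37 and 5.94 in KO 1-cell embryos (1.58 ± 0.16; 1.00 ± 0.17 with the factor divided out). In 2-cell embryos it was at 4.26 and 4.76 in WT, against 1 and 1.29 in KO (-1.36 ± 0.16; -1.87 ± 0.09). Of the other 12, the 1-cell calls of Mrpl46 and Mrpl51 ended without the second WT library (adjusted p = 0.0596 and 0.0843, limma), and that of Mrps24 without that library (adjusted p = 0.306) or without the first or second KO library (adjusted p = 0.137 and 0.0628).

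Because the members that rose in WT 2-cell embryos included proteins of both subunits, the sequence around the members' transcription starts was examined. In that rise, too, more transcripts and longer poly(A) tails cannot be told apart. RefSeq promoter windows, 250 bases before to 50 after the start in GRCm38.p6, were found for 67 of the 76 members by symbol. Windows of 5 members are printed, in the direction of transcription: Mrps11 and Mrpl46, whose windows overlap, Mrps26 and Mrpl12, which rose in WT and were lower in KO, and Mrpl32, which fell in WT and was higher in KO. Capitals mark matches to an ETS motif (CCGGAAG), an NRF1 motif (GCGC, then A and any base, then GCGC) or a YY1 motif (AAGATGGCG) on either strand; these factors are known for binding promoters of nuclear genes for mitochondrial proteins. Mrps11 is at chr7:78782881-78783180 on the + strand, Mrpl46 at chr7:78783040-78783339 on the - strand, Mrps26 at chr2:130563507-130563806 (+), Mrpl12 at chr11:120484387-120484686 (+) and Mrpl32 at chr13:14612988-14613287 (-).
Mrps11: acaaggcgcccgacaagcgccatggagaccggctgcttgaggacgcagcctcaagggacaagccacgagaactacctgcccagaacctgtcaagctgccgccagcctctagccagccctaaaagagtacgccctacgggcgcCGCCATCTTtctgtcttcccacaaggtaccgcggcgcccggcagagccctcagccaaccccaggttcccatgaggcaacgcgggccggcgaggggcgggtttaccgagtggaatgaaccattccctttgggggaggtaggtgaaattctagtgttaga
Mrpl46: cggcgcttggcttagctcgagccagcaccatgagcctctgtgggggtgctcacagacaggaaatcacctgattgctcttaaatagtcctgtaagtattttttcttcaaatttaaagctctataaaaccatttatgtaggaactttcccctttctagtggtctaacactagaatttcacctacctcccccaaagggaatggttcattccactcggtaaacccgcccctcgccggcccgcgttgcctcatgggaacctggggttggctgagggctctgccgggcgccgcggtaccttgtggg
Mrps26: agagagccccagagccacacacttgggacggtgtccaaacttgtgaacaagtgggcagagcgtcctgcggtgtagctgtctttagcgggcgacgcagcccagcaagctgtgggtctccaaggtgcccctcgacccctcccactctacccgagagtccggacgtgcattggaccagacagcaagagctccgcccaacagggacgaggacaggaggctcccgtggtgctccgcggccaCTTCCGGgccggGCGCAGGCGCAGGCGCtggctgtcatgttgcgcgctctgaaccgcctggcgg
Mrpl12: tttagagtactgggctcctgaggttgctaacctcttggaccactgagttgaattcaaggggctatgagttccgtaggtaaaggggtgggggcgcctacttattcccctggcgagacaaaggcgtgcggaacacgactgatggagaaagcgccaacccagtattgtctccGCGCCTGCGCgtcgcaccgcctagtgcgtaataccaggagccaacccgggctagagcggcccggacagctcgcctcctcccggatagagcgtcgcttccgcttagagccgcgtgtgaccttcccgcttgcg
Mrpl32: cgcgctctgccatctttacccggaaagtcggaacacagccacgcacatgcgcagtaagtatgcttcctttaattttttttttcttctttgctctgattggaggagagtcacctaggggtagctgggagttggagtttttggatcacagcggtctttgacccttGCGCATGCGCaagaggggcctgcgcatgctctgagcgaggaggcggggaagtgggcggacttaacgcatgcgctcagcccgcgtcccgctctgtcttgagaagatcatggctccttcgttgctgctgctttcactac

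Mrps11 held 1 YY1 match, Mrps26 1 ETS match and 2 overlapping NRF1 matches, and Mrpl12 and Mrpl32 1 NRF1 match each; Mrpl46 held none of the 3. So windows of a member that rose and of one that fell both carried the NRF1 letters. Over all members 38 of 67 windows (56.7%) held at least 1 of the 3 motifs, against 29.3% of the 8024 genes of the table with a window. An ETS match was in 34.3% of the members' windows and 18.4% of all, an NRF1 match in 17.9% and 10.8%, and a YY1 match in 11.9% and 3.3%. A match describes the letters only and is not a measured binding site.

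Mrps11 and Mrpl46 are neighbours transcribed away from each other, and their windows share 141 bases. Mrps11 was at the floor in both WT 1-cell libraries, at 6.16 and 3.35 FPKM in WT and at the floor in both KO 2-cell libraries. Mrpl46 was at 1.30 and 1 in WT 1-cell libraries, against a mean of 2.44 ± 0.57 (SD) in KO 1-cell embryos. It was then at 3.80 and 4.67 in WT 2-cell and at the floor in both KO 2-cell libraries. The pair, 1 protein of each subunit, thus rose in WT by 1.48 ± 0.23 and 1.28 ± 0.16, and differed between genotypes at the 2-cell stage by -1.48 ± 0.23 and -1.38 ± 0.16, measured against the floor; the 2 comparisons share the WT 2-cell libraries.

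Such a window, overlapping that of a gene on the opposite strand, was found for 23 of 67 members (34.3%) and 19.1% of the 8024 genes. Partners did not always have the same pattern. Mrpl32 shares 296 of 300 bases with Psma2, a proteasome subunit gene; at the 1-cell stage Psma2 was higher in KO by 2.62 ± 0.24 (Mrpl32, 2.83 ± 0.17), but at the 2-cell stage it differed by -0.29 ± 0.24 (adjusted p = 0.621, limma) and Mrpl32 by 1.29 ± 0.17. Mrpl18 shares 263 bases with Tcp1, a chaperonin subunit gene, which was lower in KO at the 2-cell stage by -1.55 ± 0.28 while Mrpl18 differed by 0.56 ± 0.18. Mrpl47 shares 193 bases with Ndufb5, a gene of respiratory complex I, which was higher in KO by 1.51 ± 0.24 at the 1-cell stage while Mrpl47 differed by -0.15 ± 0.20. Differences between partners were not tested.

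The members' transcripts are short. By GENCODE vM21, which held all 76, their median transcript length was 1284 bases and their median coding length 582, against 2791 and 1287 for the 10571 genes of the table that matched. Their median 3′ untranslated length was 326.5 bases against 904. Across the 76 members, transcript length went with a smaller fall from oocyte to WT 1-cell embryo on the scale without the factor (Pearson's r = 0.37, Spearman's rho = 0.40), and with the KO difference at the 1-cell stage it had r = -0.10 and rho = -0.07. GC content had r = -0.36 and rho = -0.40 with the KO difference at the 2-cell stage. With the WT change from the 1-cell to the 2-cell stage it had r = 0.313 and rho = 0.344. Transcript length had r = 0.212 and rho = 0.285 with the KO difference at the 2-cell stage. All of these values are on the scale without the factor. Further pairs of a feature and a change were computed and are not given, and none was tested. These are descriptions over genes that share the same 12 libraries, and genes are not independent replicates.

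Genes of the same machinery under other names were read the same way. At the 1-cell stage 52.7% of all genes were called higher, and 86.1% of those with a mean of at least 5 FPKM. No excess in the lists below is therefore read from the 52.7%. All 6 further mitochondrial ribosomal protein genes (Dap3, Chchd1, Ptcd3, Aurkaip1, Gadd45gip1 and Ict1) were higher in KO 1-cell embryos on the deposited scale, with a median of 1.28, where 52.7% of all genes were called higher; with the factor divided out Chchd1 (1.08 ± 0.24) and Aurkaip1 (0.98 ± 0.20) were. None was called at the 2-cell stage on the deposited scale, where 1 had been called with the factor divided out, Gadd45gip1 (-0.69 ± 0.17). Of 13 mitochondrial translation factors 8 were higher at the 1-cell stage (61.5%, against the same 52.7% of all genes) and none lower, led by the recycling factor Mrrf (1.31 ± 0.16), the release factor Mtrf1 (1.25 ± 0.15) and the elongation factor Tsfm (1.22 ± 0.26); none was called with the factor divided out. At the 2-cell stage none of the 13 was called on the deposited scale, 2 had an unadjusted p under 0.05, and with the factor divided out 2 were called higher, Mtfmt (0.60 ± 0.10) and Mrrf (0.72 ± 0.17).

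Of 19 genes for ribosome assembly and ribosomal RNA modification in the table (25 listed), 13 were higher in KO at the 1-cell stage (68.4%, against 52.7% of all genes), led by Ddx28 (1.91 ± 0.28), Mtg1 (1.67 ± 0.18) and Mterfd1 (1.45 ± 0.22), and none was lower. Ddx28 and Mtg1 were called with the factor divided out as well. At the 2-cell stage Tfb1m, which methylates the small ribosomal RNA, was higher in KO (0.87 ± 0.19), and Noa1, a GTPase of small-subunit assembly, and Mterfd1 were lower (-1.06 ± 0.17 and -0.84 ± 0.22). With the factor divided out Tfb1m was again the 1 called higher (1.08 ± 0.20) and 5 were called lower, where 18.7% of all genes were: Noa1 (-1.52), Mterfd1 (-1.24), Mettl17 (-1.19), Ngrn (-0.64) and Mpv17l2 (-0.57). Noa1 was at the floor in both WT 1-cell libraries, against 3.25 and 3.87 FPKM in the KO 1-cell libraries. In 2-cell embryos it was at 3.21 and 3.12 in WT and at the floor in both KO libraries, the pattern of Mrps11. Of 9 genes of mitochondrial transcription and RNA handling (11 listed), 7 were higher in KO 1-cell embryos (77.8%, against 52.7% of all genes) and none lower, none of them with the factor divided out. At the 2-cell stage Mtpap, the mitochondrial poly(A) polymerase, was higher (0.68 ± 0.20; 0.80 ± 0.12 with the factor divided out). Tfb2m, a factor of mitochondrial transcription initiation, was called lower only with the factor divided out (-0.67 ± 0.12, adjusted p = 0.00546, limma).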

How the data were processed

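The authors sequenced Smart-seq2 libraries as paired-end reads, per the labels' protocols. Tools named in the submitters' processing notes are TopHat2 2.1.1 and Cufflinks 2.2.1, with mm9. The deposited table holds FPKM per gene with a lowest value of 1; it is in alphabetical order and ends in an incomplete row, which was left out, so genes later in the alphabet are not analysed here and "all genes" are its 11298 complete rows. The digits of each library's factor were recovered from the greatest common divisor of its values above the floor. Its decimal place was set so that library totals before the factor lay near those of the oocyte libraries. Comparisons of oocytes with embryos without the factor rest on that choice. Divided by the factor, 100% of values were whole in their last digit, with 0.01 of that digit tolerated. All 12 libraries entered 1 limma 3.58.1 fit with trend (R 4.3.3) on log2(FPKM + 1), pseudocount 1, with no filter and p-values adjusted by Benjamini-Hochberg over 11298 genes. With the factor divided out, the highest floor among the libraries of the groups compared was applied to those groups, so it differs between comparisons. The code was tested on simulated data. The alternatives were other scalings, pseudocounts of 0.1 and 5, a mean of at least 5 FPKM, a replicate block and leaving out each library. Named members are the 8 largest called changes in each direction, extremes of level, and members called in opposite directions; promoter partners and Mrpl3, Mrpl44, Mrpl45, Mrpl53 and Mrps14 in the oocyte to 1-cell comparison were chosen after their values were seen. Members and lists were chosen with earlier results of these data known. Features came from GENCODE vM21 by symbol and promoters from RefSeq GRCm38.p6; no coordinates of mm9 were used. With 2 libraries a group, no exact permutation test can pass 0.05; the smallest two-sided p is 0.333.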

Additional observations from a re-analysis of the deposited data

Results flagged for a closer look

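The following were listed because a test of the difference between genotypes, the interaction in limma, was called. The change from oocyte to 1-cell embryo was higher (the fall smaller) in KO than in WT for 45 members on the deposited scale, with the largest estimates in Mrps28 (3.58), Mrpl39 (3.49), Mrps31 (2.86) and Mrpl32 (2.72), all 4 also called with the library factor divided out. The change from the 1-cell to the 2-cell stage was lower in KO for 59 members, with the largest estimates in Mrpl12 (-3.98), Mrps28 (-3.65), Mrpl22 (-3.53) and Mrpl39 (-3.47), again all 4 called on both scales. Both tests use the same 1-cell libraries. For members at the floor in both genotypes at the 2-cell stage, such as Mrpl39, the second test only restates the 1-cell difference with the sign reversed. The library factors of the 1-cell libraries, 0.269 and 0.212 in WT, against 0.432 and 0.552 in KO, move with both counts, which were 9 and 28 once the factor was divided out. Of all genes, 38.7% were called higher in the first test and 35.7% lower in the second on the deposited scale. With the factor divided out these shares were 4.04% and 15.8%. With 2 libraries in each group, no group was large enough to be examined for single outlying libraries.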

How the results depend on the processing

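The scale decided the counts most. For KO against WT 1-cell embryos, 59 members higher became 16 before the factor, 15 under median-ratio size factors and 16 under quantile normalization, and 0 lower became 2, 3 and 6; of all genes, 52.7% higher became 8.05%, 7.34% and 12.8%, and 0.0974% lower became 2.89%, 3.56% and 16.4%. In the same 3 settings, in that order, members higher and lower were 29, 29 and 27 higher (main 16) for WT 2-cell against 1-cell, and 5, 5 and 11 higher (main 0) with 31, 28 and 30 lower (main 67) for KO 2-cell against 1-cell. Of all genes, 9.45% higher became 21.0% before the factor in the WT step. In the KO step 0.646% higher became 10.9%, and 60.7% lower became 16.7%. KO 1-cell against KO GV gave 1, 1 and 9 higher (main 0), where 0.23% of all genes became 13.2% before the factor. The GV to 1-cell interaction gave 9, 9 and 7 higher (main 45), and the 1-cell to 2-cell interaction 28, 28 and 28 lower (main 59) with 2, 2 and 8 higher (main 0). Before the factor, 38.7% of all genes higher became 4.04% for the first interaction. For the second, 35.7% lower became 15.8%, and 0.239% higher became 5.91%. WT 2-cell against 1-cell had 12 lower before the factor and 12 with median-ratio size factors (main 28), where 29.0% of all genes became 14.9% before the factor. Where no share of all genes is given for a setting, a changed count is not read as particular to the members. Median-ratio size factors gave 1 lower for the GV to 1-cell interaction. Quantile normalization gave 13 higher for KO against WT 2-cell embryos (main 6; 23.9% of all genes) and 4 higher for WT 1-cell against GV (33.4% of all genes). A pseudocount of 5 gave 1 lower in KO oocytes. At the 1-cell stage the KO minus WT difference turned negative for some named members that were called as deposited or in the setting itself. In the same order of settings these were Mrpl34 (-0.93, -0.98 and -0.98), Mrps24 (-0.27, -0.32 and -0.25), Mrpl40 (-0.0089 and -0.12 in the last 2) and Mrpl45 (-0.68 and -0.67 in the last 2). With quantile normalization Mrpl51 (-0.0353) and Mrps22 (-0.0145) did so too. Signs that changed without a call are not listed, such as that of Mrpl45 before the factor. Mrpl55, also uncalled, went from 0.28 as deposited to -0.62 before the factor. The cause was not tested. Leaving out each library in turn gave 44 to 58 members higher for KO against WT 1-cell, 5 to 6 higher and 16 to 23 lower at 2-cell, 76 to 76 lower for WT 1-cell against GV, 13 to 18 higher and 19 to 31 lower for WT 2-cell against 1-cell, 29 to 49 for the GV to 1-cell interaction and 45 to 63 for the 1-cell to 2-cell interaction; a group then left with 1 library is assumed to vary like the others. Pairing by replicate number was not borne out. The difference between replicates 1 and 2 of a group, correlated over genes with that of another group, gave -0.40 to 0.166 over 15 pairs of groups. With a replicate block the counts were 57 higher at 1-cell, 6 higher and 21 lower at 2-cell, 76 lower for WT 1-cell against GV, 14 and 27 for WT 2-cell against 1-cell, 71 and 66 lower for the 2 KO steps, and 42 and 58 for the interactions; among named results the calls of Mrps24 at 1-cell (0.49) and Mrpl54 at 2-cell (-0.90) were lost. Applying 1 common floor moved each group's summed share by less than its SD. Values near the floor of 1 FPKM limit what can be detected: 12 members were at it in both WT and 21 in both KO 2-cell libraries.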
